A study of Mus musculus with 12 samples.

Results

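Pannexins and connexins are families of vertebrate proteins that form large-pore channels in the cell membrane. The 9 genes described here were all those of a list of 3 pannexin genes (*Panx1*, *Panx2*, *Panx3*) and 6 connexin genes (*Gja1*, *Gja4*, *Gja5*, *Gjb2*, *Gjb6*, *Gjc1*), found by gene symbol among the 36186 gene rows of an RNA-Seq table of embryonic mouse limb cartilage. Each of the 9 had 1 row. The list was made by gene family, with earlier results of these data known. The table gave RPKM values (reads scaled for transcript length and for the depth of the library) that the authors normalized further between libraries and called NRPKM, so that levels of different genes are given per length.

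The 12 libraries came from chondrocytes of the E15.5 forelimb zeugopod, the segment of radius and ulna, of mice of mixed 129 and CD-1 background. Cells were taken by laser capture microdissection (LCM), which cuts chosen areas out of a tissue section, and they were mainly chondrocytes with some perichondrial contribution. In WT limbs the resting, proliferative and hypertrophic compartments, the successive zones through which a cartilage cell passes before bone replaces it, were taken separately with 3 libraries each. The last 3 libraries came from homozygous mutants called *aadd*. The labels call the third WT group hyperproliferative, and the study's methods call it hypertrophic, which is used here. The *aadd* mice carried frameshifts in the first exon of *Hoxa9*, *Hoxa10*, *Hoxa11*, *Hoxd9*, *Hoxd10* and *Hoxd11*, made by insertion of a LoxP site with a small deletion. Such a change need not remove a transcript, and the 6 genes were listed at 5.17 to 52.1 NRPKM in *aadd* and 4.34 to 30.5 in WT resting. Mutant compartments could not be told apart in the sections, so the *aadd* libraries hold the whole chondrocyte population although their label says resting. No treatment was given in any group. The sets of samples were described as independent, but no label ties a library to an animal or says whether animals were pooled, so the tests measure the spread between these samples.

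Depth estimated from the table was 1890000 to 3240000 reads a library, and 1 read on a transcript of 1 kb was worth 0.309 to 0.529 NRPKM. The 10 chondrocyte markers were detected in every library, with summed levels of 2380 to 4955 NRPKM outside the hypertrophic group. The 10 markers of prehypertrophic and hypertrophic chondrocytes summed to 1717 to 3805 NRPKM in WT hypertrophic, 501 to 828 in WT proliferative, 75.2 to 102 in WT resting and 59.8 to 93.6 in *aadd*. WT hypertrophic replicate 1 stood apart from replicates 2 and 3. Its chondrocyte markers summed to 3005 NRPKM against 677 and 965, and its osteoclast markers to 59.3 against 1379 and 1023. It is therefore given separately below, and calls that involve that group are also given without it. In bulk samples of this kind, fewer cells of a type and less RNA per cell cannot be told apart.

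Pannexins form channels of a single membrane that open the cytoplasm to the outside and let out ATP and other small molecules. *Panx1* is expressed in most tissues, *Panx2* mainly in the nervous system, and *Panx3* in cartilage, bone and skin, where its product also acts as a calcium channel of the endoplasmic reticulum and is known to promote the differentiation of chondrocytes and osteoblasts. Connexins dock between neighbouring cells as gap junctions and also work as hemichannels. *Gja1* (Cx43) is the principal connexin of bone cells, *Gjc1* (Cx45) is found in osteoblasts, smooth muscle and the conduction system of the heart, *Gja4* (Cx37) and *Gja5* (Cx40) are connexins of arterial endothelium, and *Gjb2* (Cx26) and *Gjb6* (Cx30) are connexins of the epidermis and the cochlea.

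In mm10, the coordinates of the table place the pannexins on 2 chromosomes. *Panx1* (gene ID 55991) lies at chr9:15005785-15045478 on the minus strand and *Panx3* (gene ID 208098) at chr9:37659902-37669222 on the same strand. *Panx2* (gene ID 406218) lies at chr15:89059726-89070907 on the plus strand. *Gja1* (gene ID 14609) is at chr10:56377273-56390419 (plus), *Gjc1* (gene ID 14615) at chr11:102799478-102819686 (minus), *Gja4* (gene ID 14612) at chr4:127311421-127313978 (minus) and *Gja5* (gene ID 14613) at chr3:97032416-97053634 (plus). The last pair are neighbours on chromosome 14, *Gjb2* (gene ID 14619) at chr14:57098602-57104702 and *Gjb6* (gene ID 14623) at chr14:57123303-57133577, both minus. In the GENCODE annotation, antisense genes overlap *Panx2* and *Gja5*. The sources used here do not state whether strand was used in counting, so reads of these genes and of their antisense partners cannot be separated.

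A RefSeq promoter sequence (GRCm38.p6, the assembly of mm10) was found for 6 of the 9 genes, *Panx1*, *Gja1*, *Gja4*, *Gja5*, *Gjb2* and *Gjb6*. The 3 shown belong to the connexins that had their highest levels in the same libraries, WT hypertrophic replicates 2 and 3 (values below). Each line gives the 250 bases before the annotated start, 5′ to 3′ on the strand of the gene, at chr10:56377050-56377299 (plus) for *Gja1*, chr4:127314040-127314289 (minus) for *Gja4* and chr3:97032152-97032401 (plus) for *Gja5*, with matches to the motifs searched in capitals. The starts are those of the promoter set and differ from the ends of the gene rows given above, and the *Gja1* window runs into its row.
Gja1: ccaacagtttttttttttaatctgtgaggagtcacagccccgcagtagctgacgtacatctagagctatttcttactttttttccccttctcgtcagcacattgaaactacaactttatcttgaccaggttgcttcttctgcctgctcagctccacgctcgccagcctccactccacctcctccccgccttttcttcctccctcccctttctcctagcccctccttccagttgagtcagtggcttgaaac
Gja4: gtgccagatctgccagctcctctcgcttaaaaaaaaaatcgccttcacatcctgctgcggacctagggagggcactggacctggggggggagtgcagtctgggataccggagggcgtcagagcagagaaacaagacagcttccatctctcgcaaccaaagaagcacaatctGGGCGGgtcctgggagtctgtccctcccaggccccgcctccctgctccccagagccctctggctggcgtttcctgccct
Gja5: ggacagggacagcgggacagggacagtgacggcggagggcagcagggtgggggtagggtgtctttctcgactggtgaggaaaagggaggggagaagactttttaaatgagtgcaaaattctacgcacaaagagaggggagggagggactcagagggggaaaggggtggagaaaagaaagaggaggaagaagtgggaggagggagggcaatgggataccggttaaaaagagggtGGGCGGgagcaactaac
The motifs were the Sp1 family box GGGCGG and the RUNX core TGTGGT, each on both strands and with no overlap between their letters. The Sp1 box occurred once in the *Gja4* window, 79 bases before the start, and once in that of *Gja5*, 17 bases before it, both on the strand of the gene. *Gja1* held neither motif in its window. Of 32851 promoter windows of the same length, 32.7% held the Sp1 box and 14% the RUNX core. Outside these 3, *Panx1* held 2 RUNX cores, beginning 243 and 98 bases before its start, and *Gjb2* held 2 Sp1 boxes. A match is a description of the letters and not evidence of a bound site.

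Of the 9 genes, 4 were expressed strongly enough to be tested (5 NRPKM or more in 3 or more of the 12 libraries), namely *Panx1*, *Panx3*, *Gja1* and *Gjc1*. *Panx1* passed only with the WT hypertrophic libraries counted, the group in which it is called higher below. *Gja4* and *Gja5* reached 5 NRPKM in 2 libraries only and *Panx2*, *Gjb2* and *Gjb6* in none, and these 5 are described by their levels. Differences were tested with limma on log2(NRPKM + 0.1) over 10936 genes, and all fold changes are on that scale, which understates those of low genes. A gene was called at an unadjusted *P* up to 0.05 with a fold change (FC) of at least 2 between WT compartments or 1.5 against *aadd*. The Benjamini-Hochberg adjusted *P* over all genes tested is given for the calls of the main fits, and for only some of those under alternatives. For 1 gene in 3 against 3 libraries, the smallest *P* an exact two-sided permutation test can give is 0.1.

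*Panx3* had the widest range of the 9 genes. It was listed at 21.1, 7.02 and 6.02 NRPKM in WT resting replicates 1 to 3, at 186, 294 and 248 in WT proliferative, at 344 in WT hypertrophic replicate 1 and 235 and 221 in replicates 2 and 3, and at 0.856, 1.44 and 4.39 in *aadd*. All proliferative and hypertrophic libraries lay far above the resting ones, and all *aadd* libraries lay below them. Its level was between the 38th and the 126th highest of the 36186 rows in the 6 proliferative and hypertrophic libraries, and between the 10207th and the 13762nd in *aadd*. About 6.04, 8.05 and 31.8 reads stood behind the *aadd* values, against 39 to 158 in resting and 1190 to 2030 in the other 2 groups. In the order of the group means, hypertrophic (267 ± 67.0 NRPKM, SD, n = 3) and proliferative (243 ± 53.9) overlapped, whereas proliferative and resting (11.4 ± 8.43), and resting and *aadd* (2.23 ± 1.89), did not. Mean *Panx3* was 21.3 times as high in proliferative as in resting, and 5.10 times as high in resting as in *aadd*.

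**Figure D1:**
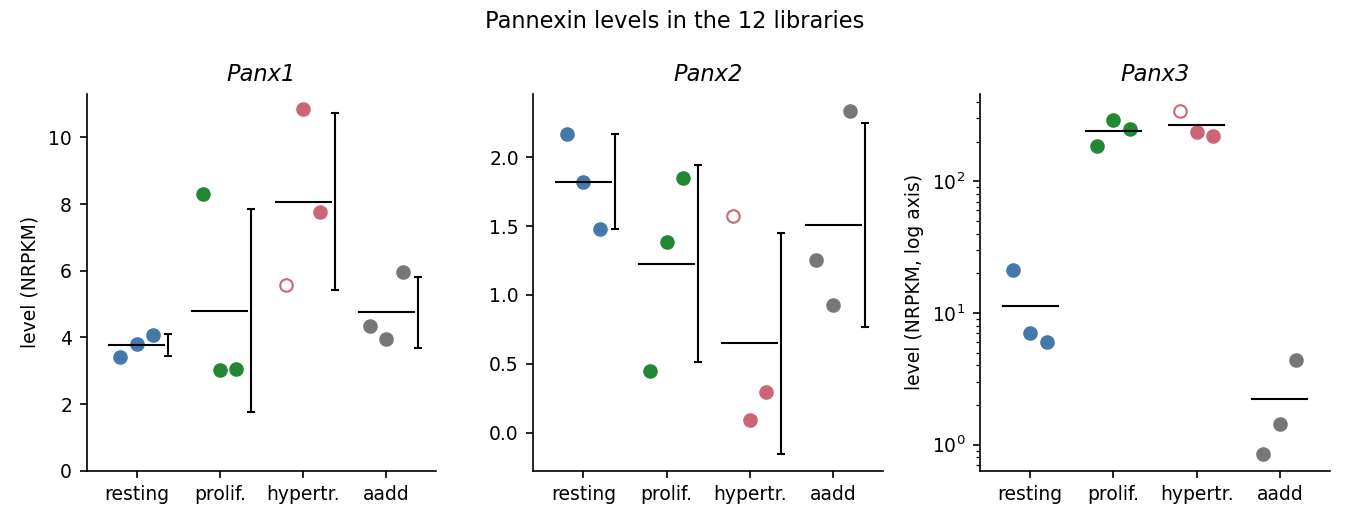
Levels of *Panx1*, *Panx2* and *Panx3* (NRPKM; log axis for *Panx3*) in the 12 libraries, each point a library with replicates 1 to 3 from left to right in each group, lines the group means and, on the linear panels, bars the SD (n = 3). The open point is WT hypertrophic replicate 1, and *Panx3* is between 186 and 344 NRPKM in the proliferative and hypertrophic libraries and between 0.856 and 4.39 in *aadd*.

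From WT resting to WT proliferative, *Panx3* rose by a log2 fold change of 4.61 (SE 0.49, limma adjusted *P* = 0.0226), and no other of the 4 tested genes was called, where 5.53% of all genes were called. Its libraries did not overlap between the groups, as for 24% of all genes, and its adjusted *P* under 0.05 was shared by 0.622% of all genes. Libraries of these 2 groups that carry the same number deviated together. With the replicate number as a block the adjusted *P* of *Panx3* was 0.073, and it was still called by *P* and FC. Over all alternatives its adjusted *P* ranged from 0.0042 to 0.107. The study had itself named *Panx3*, from these same libraries, among the genes higher in the proliferative than in the resting compartment. *Panx1* (log2 fold change 0.18, adjusted *P* = 0.852 in limma), *Gja1* (0.15, 0.727) and *Gjc1* (-0.52, 0.452) did not pass.

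*Panx3* was not called between WT hypertrophic and WT proliferative (log2 fold change 0.13, SE 0.27, limma adjusted *P* = 0.795), and its sign turned without hypertrophic replicate 1 (-0.064) or proliferative replicate 1 (-0.045). From WT resting to WT hypertrophic it rose by 4.75 (SE 0.50, adjusted *P* = 0.00627 in limma), 4.55 without hypertrophic replicate 1. In this comparison 3 of the 4 tested genes were called, *Panx3*, *Gja1* and *Panx1*, against 13% of all genes, and 1 of them, *Panx3*, was among the 6.36% of genes with an adjusted *P* under 0.05. *Panx1* had entered the test only through the hypertrophic libraries. The libraries of *Panx3* and of *Panx1* did not overlap between the groups, as for 32% of all genes. The summed markers of hypertrophic chondrocytes were also far higher in hypertrophic and proliferative than in resting and *aadd*, where they overlapped, and their part in the level of *Panx3* was not tested. Of those 10 markers, 4 are also in the osteoblast list.

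In *aadd*, *Panx3* was lower than in each WT compartment. Against WT resting its log2 fold change was -2.37 (SE 0.67, adjusted *P* = 0.334 in limma), and no other of the 4 tested genes was called, against 6.56% of all genes. No tested pannexin or connexin was among the 0.119% of genes with an adjusted *P* under 0.05, and 15.4% of all genes had no overlap between the groups. The call held under all 14 alternatives, where the adjusted *P* was 0.278 to 0.694. WT resting replicate 1 held the highest resting value, and without it the log2 fold change was -1.81. Without *aadd* replicate 3, the highest of the mutants, it was -3.00.

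Against WT proliferative, *Panx3* fell by 6.99 on the log2 scale in *aadd* (SE 0.55, adjusted *P* = 0.00202 in limma, 0.000137 to 0.0262 over the alternatives). Again no other of the 4 was called, where 15.8% of all genes were called, 3% had an adjusted *P* under 0.05 and 25.6% did not overlap. Against WT hypertrophic it fell by 7.12 (SE 0.56, adjusted *P* = 0.00188 in limma), and by 6.92 without hypertrophic replicate 1. In that comparison 3 of the 4 were called, *Panx3*, *Gja1* and *Panx1*, against 21.9% of all genes, with 7.64% of all genes and *Panx3* alone of the 4 at an adjusted *P* under 0.05. *Panx1* was again a gene tested only because of its hypertrophic levels. *Panx3*, *Gja1* and *Gjc1* did not overlap between these groups, as 30.9% of all genes did not. The 6 comparisons share libraries and are not independent of each other. The *aadd* libraries are a whole chondrocyte population and each WT group is a single compartment, so genotype and the cells taken cannot be told apart.

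Over the 4 groups, *Panx3* passed limma's moderated F test (adjusted *P* = 0.000117), as did 13.8% of all genes tested. *Gja1* (adjusted *P* = 0.0744), *Panx1* (0.218) and *Gjc1* (0.324) did not. Among the 10936 genes, the 5 whose log2 levels followed *Panx3* most closely over the 12 libraries were *Pltp* (Pearson *r* = 0.962), *Cox8a* (0.958), *St3gal5* (0.956), *Pth1r* (0.955) and *Rbpms2* (0.953). *Pth1r*, the receptor for parathyroid hormone related protein on prehypertrophic chondrocytes, had mean levels of 16.9, 73.5, 107 and 12.4 NRPKM in resting, proliferative, hypertrophic and *aadd*. *Pltp*, which encodes a phospholipid transfer protein, had 2.46, 23.9, 47.5 and 0.247 NRPKM in the same order. The others changed less, with 95.8, 130, 138 and 83.9 NRPKM for *Cox8a* and 12.8, 20.9, 23.6 and 9.29 for *St3gal5*. *Rbpms2* had 6.44, 17.1, 15.2 and 4.34. These correlations describe 12 libraries that fall into few groups.

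*Panx1*, the widely expressed pannexin, was at 3.43, 3.81 and 4.08 NRPKM in WT resting, 8.31, 3.02 and 3.06 in WT proliferative, 5.57, 10.9 and 7.77 in WT hypertrophic and 4.36, 3.95 and 5.96 in *aadd*. Every hypertrophic library exceeded every resting one, while proliferative replicate 1 stood above the other libraries of its group and within the hypertrophic range. From resting to hypertrophic it rose by a log2 fold change of 1.03 (SE 0.27, adjusted *P* = 0.0757 in limma), just past the criterion of a 2-fold change. It was not called between hypertrophic and proliferative (0.85, adjusted *P* = 0.345 in limma; 1.09 without hypertrophic replicate 1), although it was without proliferative replicate 1 (1.33, adjusted *P* = 0.203; 0.178 to 0.680 across the alternatives). The call against resting was lost with a pseudocount of 1 and without resting replicate 1 or hypertrophic replicate 2 (fold changes of 0.89, 0.96 and 0.79). Without hypertrophic replicate 1 the value was 1.27 and the adjusted *P* 0.012 in limma, which was the lowest value of the alternatives, the highest being 0.217. Without that library 2651 of 10936 genes had an adjusted *P* under 0.05, against 696 with it. In *aadd* *Panx1* fell by 0.72 on the log2 scale against hypertrophic (SE 0.30, adjusted *P* = 0.197 in limma), a call lost under 8 of the 14 alternatives, and by 0.96 without hypertrophic replicate 1.

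*Panx2*, the pannexin of the nervous system, stayed at or below 2.34 NRPKM and was not tested. It was at 2.17, 1.82 and 1.48 NRPKM in WT resting, 0.445, 1.39 and 1.85 in WT proliferative, 1.57, 0.0899 and 0.293 in WT hypertrophic and 1.25, 0.927 and 2.34 in *aadd*. The lowest values were those of hypertrophic replicates 2 and 3, with about 0.988 and 2.96 reads, and the groups overlapped.

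The make-up of the pannexin transcripts therefore differed between the groups. *Panx3* accounted for 95.5 to 98.5% of the summed NRPKM of the 3 pannexins in the proliferative and hypertrophic libraries and for 52.0 to 79.1% in resting. In *aadd* it accounted for 13.2 to 34.6%, and *Panx1* for 47.0 to 67.4%. The ratio of *Panx3* to *Panx1* was 21.6 to 97.2 in the proliferative and hypertrophic libraries, 1.48 to 6.16 in resting and 0.197 to 0.737 in *aadd*, with no overlap between resting and *aadd*.

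*Gja1*, which encodes Cx43, was the most abundant of the 6 connexins described here in 10 of the 12 libraries. It was at 29.4, 27.5 and 19.5 NRPKM in WT resting, 28.7, 28.8 and 26.4 in WT proliferative, 28.5, 98.7 and 93.0 in WT hypertrophic and 18.8, 28.4 and 18.7 in *aadd*. Hypertrophic replicates 2 and 3 stood above all other libraries, and hypertrophic replicate 1 lay within the range of the resting libraries. The mean of the hypertrophic group was 73.4 ± 39.0 NRPKM (SD, n = 3), and that of replicates 2 and 3 was 95.8. The other groups had means of 25.5 ± 5.27 (resting), 28.0 ± 1.33 (proliferative) and 22.0 ± 5.60 (*aadd*), and all neighbours in the order of means overlapped.

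**Figure D2:**
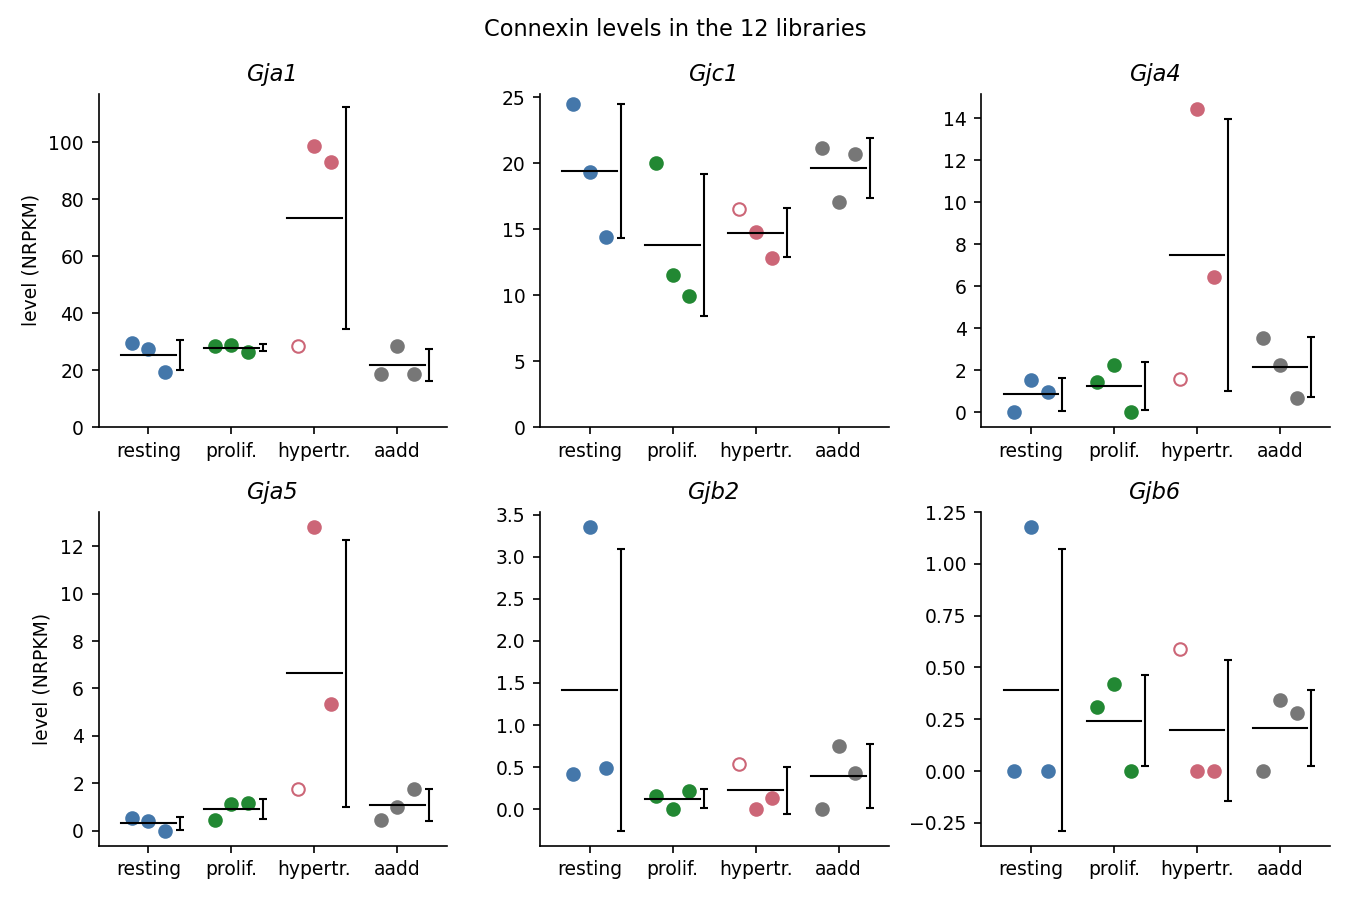
Levels of 6 connexins (NRPKM, linear axes, a separate scale for each gene) in the 12 libraries, each point a library with replicates 1 to 3 from left to right in each group, lines the group means and bars the SD (n = 3). *Gja1*, *Gja4* and *Gja5* are highest in hypertrophic replicates 2 and 3 while replicate 1 (open) is not, and *Gjb2* and *Gjb6* are highest in resting replicate 2.

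By limma, *Gja1* was higher in WT hypertrophic than in WT proliferative by a log2 fold change of 1.19 (SE 0.49, adjusted *P* = 0.258), with an unadjusted *P* at the very edge of the criterion. No other of the 4 tested genes was called in that comparison, where 9.67% of all genes were called and 24.2% had no overlap between the groups. None of the 4 was free of overlap. In limma 0% of all genes had an adjusted *P* under 0.05 there, with 2115 at an unadjusted *P* up to 0.05. This *Gja1* call was lost with rescaling, quantile normalization, the replicate block or no filter, and without any 1 library other than hypertrophic replicate 1. Without hypertrophic replicate 1 the log2 fold change was 1.77 and the adjusted *P* 0.00626 in limma (0.00626 to 0.588 across the alternatives), and 2007 of all genes were then called, against 1057 with it. An adjusted *P* under 0.05 was then held by 1905 of 10936 genes.

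Against WT resting, *Gja1* was higher in WT hypertrophic by 1.35 (SE 0.51, adjusted *P* = 0.159 in limma), and by 1.93 with an adjusted *P* of 0.00471 without hypertrophic replicate 1 (range 0.00471 to 0.385). Without that library 2651 of 10936 genes had an adjusted *P* under 0.05, against 696 with it. The replicate block (adjusted *P* = 0.220 in limma), the absence of a filter and leaving out any other library each ended this *Gja1* call. In *aadd* *Gja1* fell by 1.57 on the log2 scale against WT hypertrophic (SE 0.51, adjusted *P* = 0.119 in limma). Without hypertrophic replicate 1 the value was -2.15 (adjusted *P* = 0.00259 in limma, 0.00259 to 0.329 across the alternatives), and without hypertrophic replicate 2 or 3 or *aadd* replicate 1 or 3 the call was lost. An adjusted *P* under 0.05 was held by 2709 of 10936 genes without hypertrophic replicate 1, against 836 with it. *Gja1* was not called between *aadd* and WT resting (-0.22, adjusted *P* = 0.815 in limma) or WT proliferative (-0.37, 0.409).

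**Figure D3:**
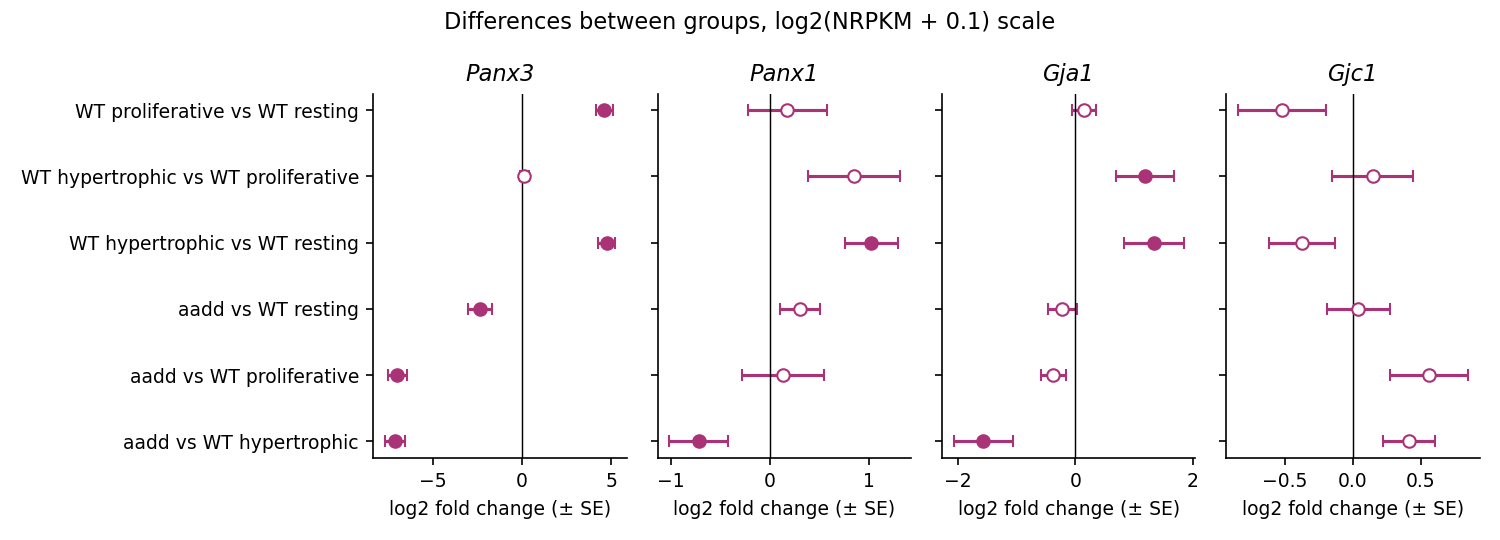
Log2 fold changes (first group minus second, log2(NRPKM + 0.1) scale, each gene with its own horizontal scale) of the 4 tested genes in 6 comparisons, with bars the SE from limma (3 libraries a group). Filled points were called by *P* and FC, as in 5 of the 6 comparisons for *Panx3*, 3 for *Gja1*, 2 for *Panx1* and none for *Gjc1*.

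The libraries with high *Gja1* also differed from hypertrophic replicate 1 in their markers of several cell types. Osteoclast markers (10 genes) summed to 1379 and 1023 NRPKM in hypertrophic replicates 2 and 3, to 59.3 in replicate 1 and to 37.9 to 69.4 in the other groups. Osteoblast markers, another 10, summed to 3526 and 4626 against 1546 in replicate 1. Markers of prehypertrophic and hypertrophic chondrocytes, some of them also in the osteoblast list, summed to 3438 and 3805 against 1717. Macrophage markers (9 genes) summed to 250 and 218 against 24.7. The part of these cells in the level of *Gja1* was not tested. The 3 genes whose log2 levels followed *Gja1* most closely over the 12 libraries were *Ehd4* (Pearson *r* = 0.964), *Atp6v0d2* (0.963), a proton pump subunit of osteoclasts, and *Pfn1* (0.961). *Ehd4* averaged 6.33, 5.88, 18.5 and 5.12 NRPKM in resting, proliferative, hypertrophic and *aadd*, and *Pfn1* 148, 171, 217 and 141. *Atp6v0d2*, itself in the osteoclast list summed above, averaged 94.0 NRPKM in hypertrophic with replicate 1 included and 0.498 to 1.16 in the other groups. The whole osteoclast list summed to 59.3 in replicate 1, so that mean does not describe this library.

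*Gjc1*, which encodes Cx45, varied least. It was at 24.5, 19.3 and 14.4 NRPKM in WT resting, 20, 11.5 and 9.97 in WT proliferative, 16.6, 14.8 and 12.8 in WT hypertrophic and 21.1, 17.0 and 20.7 in *aadd*. All neighbouring groups overlapped, and the *aadd* libraries lay above the hypertrophic ones without overlap. It was called in none of the 6 comparisons, with log2 fold changes from -0.52 to 0.56. Between *aadd* and hypertrophic the difference was 0.41 (SE 0.19, adjusted *P* = 0.235 in limma). Without WT proliferative replicate 1, the highest of its group, *Gjc1* was called between *aadd* and proliferative (0.86). In *aadd* replicates 1 and 3 its level was above that of *Gja1*, and the ratio of *Gja1* to *Gjc1* was 0.889 to 1.67. In hypertrophic replicates 2 and 3 the same ratio was 6.69 and 7.24, against 1.72 in replicate 1 and 1.20 to 2.65 in resting and proliferative.

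*Gja4* and *Gja5*, the connexins of arterial endothelium, were low outside 2 libraries. *Gja5* (Cx40) was at 0.535, 0.395 and 0 NRPKM in WT resting, 0.439, 1.11 and 1.17 in WT proliferative, 1.76, 12.8 and 5.35 in WT hypertrophic and 0.454, 1.01 and 1.77 in *aadd*. *Gja4* (Cx37) was at 0, 1.54 and 0.963 NRPKM in WT resting, 1.41, 2.25 and 0 in WT proliferative, 1.58, 14.5 and 6.41 in WT hypertrophic and 3.54, 2.24 and 0.645 in *aadd*. Both were highest in hypertrophic replicate 2, next in replicate 3, and in replicate 1 no higher than in some library of *aadd*. About 129 and 49.6 reads stood behind *Gja5*, and 78.9 and 32.2 behind *Gja4*, in those 2 libraries. In every other library either gene had 16.6 reads or fewer.

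With no filter on low values, *Gja5* was called between hypertrophic and resting (log2 fold change 4.01, adjusted *P* = 0.138 in limma), hypertrophic and proliferative (2.43, 0.362) and *aadd* and hypertrophic (-2.28, 0.268). *Gja4* was called between hypertrophic and resting alone (3.28, adjusted *P* = 0.300). With no filter, 2769 of 22206, 2120 of 22511 and 3430 of 22471 genes were called, in the order of the comparisons given for *Gja5*. Without hypertrophic replicate 1, a choice made after seeing the data, the *Gja5* values were 4.73, 3.16 and -3.00, all called, with limma adjusted *P* of 0.0739 to 0.0850. *Gja4* then missed the call against resting (4.12) and passed it between *aadd* and hypertrophic (-2.39). The share of all genes called with neither that library nor a filter was not counted. With the filter and without that library it was 19.2%, 18.4% and 34.2%, in the same order. The folds of *Gja4* and *Gja5* depend on the 0.1 added, since several libraries were at or near 0.

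Endothelial markers moved with both genes. The 10 markers summed to 290 and 200 NRPKM in hypertrophic replicates 2 and 3, to 20.5 in replicate 1, to 4.83 to 14.4 in resting and proliferative and to 5.02 to 35.8 in *aadd*, and *Cldn5* was at 0 in the 3 proliferative libraries. The highest endothelial sum and the highest *Gja4* and *Gja5* were those of the same library. In *aadd*, the library with the endothelial sum of 35.8 was replicate 2, while *Gja4* was highest in replicate 1 and *Gja5* in replicate 3. Their part in the levels of *Gja4* and *Gja5* was not tested. Erythroid markers summed to 374 and 412 NRPKM in hypertrophic replicates 2 and 3 and to 39.1 to 190 in the other 10 libraries.

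**Figure D4:**
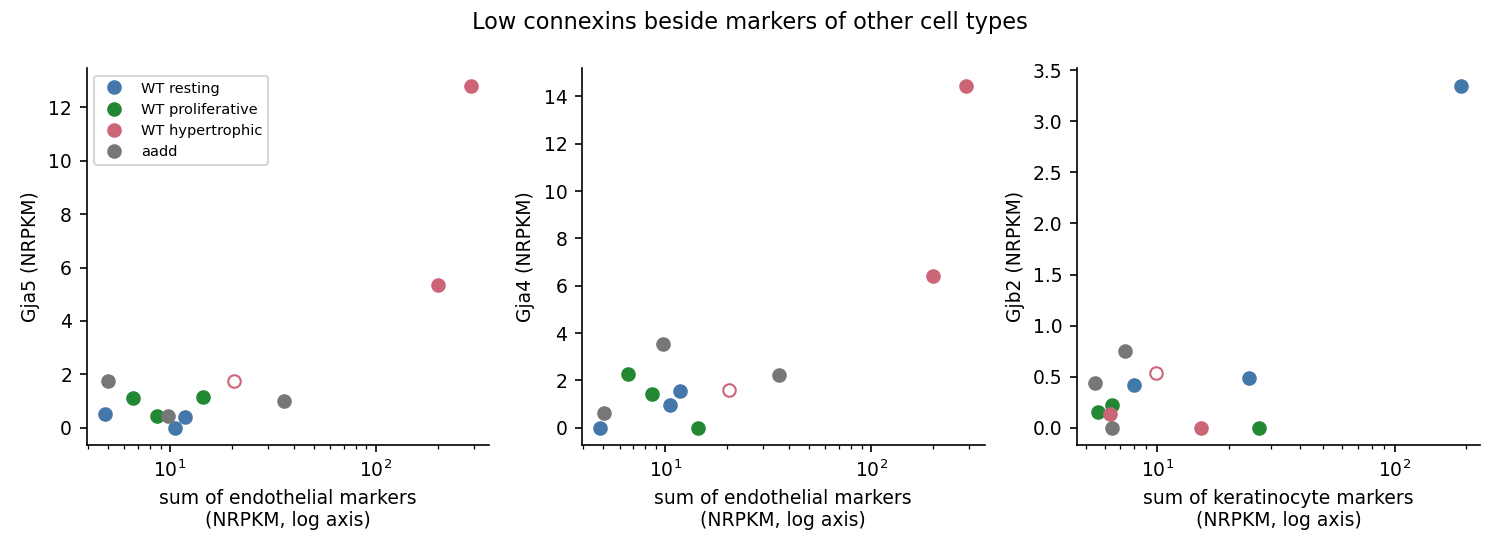
Levels of *Gja5*, *Gja4* and *Gjb2* (NRPKM) in the 12 libraries against the summed level of endothelial or keratinocyte markers in the same library (NRPKM, log axis), coloured by group, with WT hypertrophic replicate 1 open. Hypertrophic replicates 2 and 3 have the highest endothelial sums (290 and 200) and resting replicate 2 the highest keratinocyte sum (191).

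Of the 9 genes, *Gja1*, *Gja4* and *Gja5* had both hypertrophic replicates 2 and 3 above the other 10 libraries. Among the 10936 genes tested this was so for 16.4%, 1790 in all, and of the 4 tested members for *Gja1* alone. *Gja4* and *Gja5* did not pass the filter and are outside that share.

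*Gjb2* and *Gjb6*, neighbouring genes for the connexins of epidermis, were near the limit of detection. *Gjb2* (Cx26) was at 0.422, 3.35 and 0.488 NRPKM in WT resting, 0.159, 0 and 0.220 in WT proliferative, 0.534, 0 and 0.140 in WT hypertrophic and 0, 0.757 and 0.436 in *aadd*. *Gjb6* (Cx30) was above 0 in 6 libraries and highest, at 1.18 NRPKM, in the same library as *Gjb2*, WT resting replicate 2. About 19.4 reads of *Gjb2* and 5.96 of *Gjb6* stood behind these values, and the other libraries had at most 4.01 reads of either gene. Keratinocyte markers summed to 191 NRPKM in resting replicate 2 and to 5.49 to 26.8 in the other 11 libraries. The part of such cells in the *Gjb2* and *Gjb6* values was not tested. *Gjb2* was higher in every resting library than in any proliferative one, by about 3.01 reads against 1 or none outside resting replicate 2, which is too little to resolve a difference at this depth.

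Over the 20 connexin rows of the table, the 6 described here and 14 others, the summed level was 75.5 to 117 NRPKM in all libraries but hypertrophic replicates 2 and 3, which had 178 and 151. *Gja1* made up 55.4 and 61.7% of the sum in those 2 libraries and 21.7 to 34.1% in the rest. *Gja4* and *Gja5* together made up 15.3 and 7.80% there, and 0.602 to 5.29% elsewhere. Of the 14 other connexins, 12 stayed at or below 2.46 NRPKM and were not tested. The remaining pair, *Gjc3* (8.92 to 24.8 NRPKM) and *Gje1* (up to 36.4), were called in none of the 6 comparisons, though without hypertrophic replicate 1 *Gjc3* was called lower in hypertrophic than in proliferative (-1.10, adjusted *P* = 0.0432 in limma). Of all genes, 18.4% were then called, and 1905 of 10936 had an adjusted *P* under 0.05. *Gjc3* and *Gje1* fall outside the rule for named genes and are named after their values were seen. The *Gje1* row lies inside that of another gene, so its reads are uncertain.

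**Figure D5:**
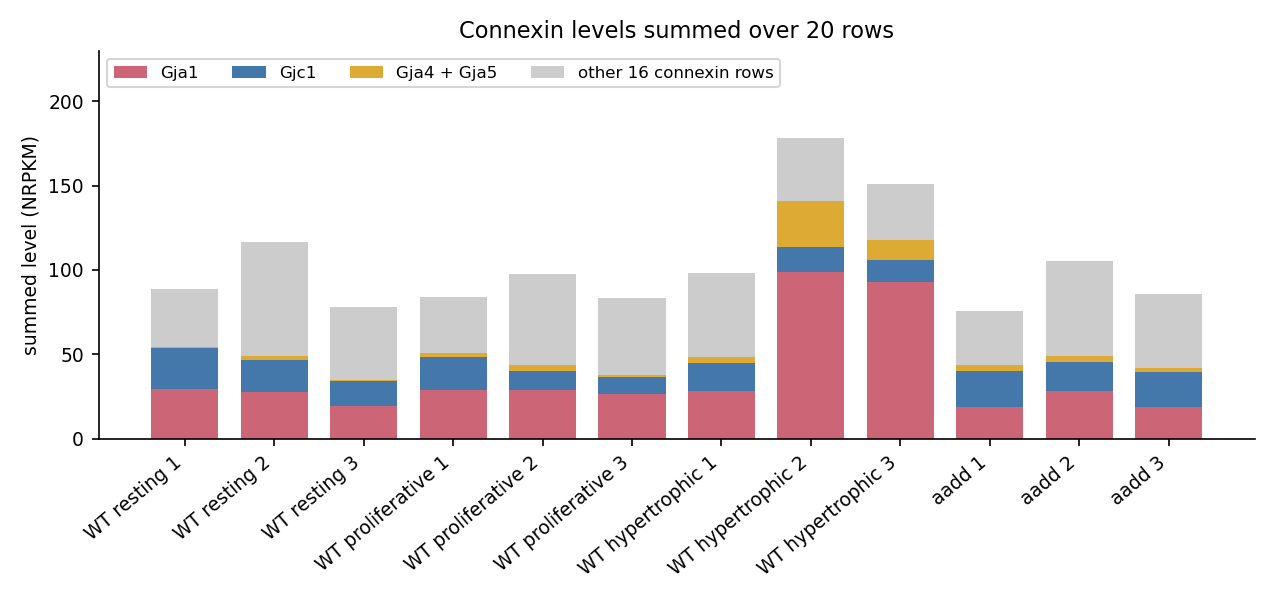
Summed level of 20 connexin rows (NRPKM, bars from 0) in each of the 12 libraries, split into *Gja1*, *Gjc1*, *Gja4* with *Gja5*, and the 16 other rows. The sums of 178 and 151 in WT hypertrophic replicates 2 and 3 stand above the 75.5 to 117 of the other libraries, with *Gja1* at 98.7 and 93.0 of them.

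Proteins that bind or traffic gap junctions were listed as 12 partners, of which 9 were tested. The neural cadherin gene *Cdh2* alone was called between proliferative and resting (log2 fold change 1.41, limma adjusted *P* = 0.260). The median was -0.29 for the list and -0.06 for all genes, of which 5.53% were called. Between hypertrophic and proliferative, 6 rose and none fell by the call rule, where 9.67% of all genes were called, with a median of 1.03 beside 0.04 for all genes and no adjusted *P* under 0.05. They were *Cav1* (caveolin, 2.74), *Cdh2* (2.50), *Dbn1* (drebrin, which binds Cx43, 1.89), *Src* (a kinase that phosphorylates Cx43, 1.34), *Cdh11* (the osteoblast cadherin, 1.03) and *Tjp1* (ZO-1, the scaffold at the edge of gap junctions, 1.02). The hypertrophic libraries were spread widely, from 3.71 to 46.8 NRPKM for *Cav1* and from 7.56 to 26.0 for *Dbn1*. Without hypertrophic replicate 1 the same 6 and *Cnst* were called, against 18.4% of all genes, with a median of 1.21 beside 0.07. Between hypertrophic and resting *Cdh2* (3.91, adjusted *P* = 0.000843 in limma) and *Dbn1* (1.22, adjusted *P* = 0.161) rose, against 13% of all genes called, with a median of 0.87 beside -0.02. *Tjp1* (1.14) and *Cav1* (3.22) were called as well when hypertrophic replicate 1 was left out, against 19.2% of all genes. Against hypertrophic, 4 of the 9 fell in *aadd*, where 21.9% of all genes were called, *Cdh2* (-2.66, adjusted *P* = 0.00253 in limma), *Tjp1* (-0.96, 0.0542), *Ctnnb1* (-0.72, 0.0973) and *Cttn* (-0.59, 0.124). The list median was -0.72 beside 0.01. With hypertrophic replicate 1 left out, 8 of the 9 fell, against 34.2% of all genes. The osteoclast, macrophage and endothelial markers were all high in hypertrophic replicates 2 and 3 (sums given above), and their part in the levels of these genes was not tested. Against resting *Cdh2* rose in *aadd* (1.25, adjusted *P* = 0.0960 in limma, median 0.16 beside 0.01), where 6.56% of all genes were called. Against proliferative *Cnst* (0.68, limma adjusted *P* = 0.185) and *Src* (0.63, 0.210) rose in *aadd* by the call rule (median 0.48 beside 0.05), where 15.8% of all genes were called.

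ATP let out through pannexin channels acts on purinergic receptors, and only *P2rx4* and *P2ry1* of 19 receptor genes were tested. *P2ry1*, a receptor for ADP, was at 3.23 to 5.84 NRPKM in proliferative and 2.94 to 5.94 in hypertrophic, against 1.39 to 2.52 in resting and 0.468 to 2.25 in *aadd*. *P2ry1* passed the filter only through proliferative and hypertrophic libraries, the groups in which it is called higher. It was called higher in proliferative than resting (log2 fold change 1.25, limma adjusted *P* = 0.141) and in hypertrophic than resting (1.16, 0.0888). In *aadd* it was called lower than in proliferative (-1.99, limma adjusted *P* = 0.0963) and hypertrophic (-1.90, 0.0863). The shares of all genes called in these comparisons were, in the same order, 5.53%, 13%, 15.8% and 21.9%. The comparisons of hypertrophic with resting and of *aadd* with hypertrophic gave 1.13 and -1.87 for *P2ry1* without hypertrophic replicate 1, both called. The shares of all genes were then 19.2% and 34.2%. *P2rx4*, an ATP-gated ion channel, was called in none of the 6 comparisons.

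Of 12 genes for enzymes that act on nucleotides outside the cell and for pyrophosphate export, 8 were tested and 2 were called in all 3 comparisons of WT compartments. Of all genes, 5.53% were called between proliferative and resting, 9.67% between hypertrophic and proliferative and 13% between hypertrophic and resting. *Alpl*, the alkaline phosphatase of mineralizing cells, was at 0.466 to 1.61 NRPKM in resting, 18.3 to 60.3 in proliferative, 121 to 162 in hypertrophic and 0.286 to 1.45 in *aadd*. *Entpd3*, an ectonucleotidase, had 0.227 to 0.528 NRPKM in resting, 6.15 to 12.4 in proliferative, 33.1 to 40.8 in hypertrophic and 0.202 to 0.882 in *aadd*. Both genes passed the filter only through proliferative and hypertrophic libraries, the groups in which they are called higher. From resting to proliferative *Alpl* rose by 5.37 (adjusted *P* = 0.0226 in limma) and *Entpd3* by 4.32 (0.0126), with a list median of 0.43 beside -0.06 for all genes. With the replicate number as a block, 9 of 10936 genes had an adjusted *P* under 0.05 there, against 68 without it. Values of the related lists with that block are not given here. Unlike *Panx3*, *Alpl* and *Entpd3* were also called between hypertrophic and proliferative (1.84 and 1.87, limma adjusted *P* = 0.160 and 0.116), with a median of 0.25 beside 0.04. The difference between these genes and *Panx3* in that comparison was not tested. From resting to hypertrophic the values were 7.21 and 6.19 (adjusted *P* = 0.000968 and 0.000505 in limma; median 0.36 beside -0.02). With hypertrophic replicate 1 left out, *Alpl* and *Entpd3* differed by 1.91 and 1.78 from proliferative and by 7.28 and 6.10 from resting, all called. Of all genes, 18.4% and 19.2% were then called.

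In *aadd*, *Alpl* and *Entpd3* fell against proliferative (-5.85 and -4.23, adjusted *P* = 0.00842 and 0.00912 in limma) and against hypertrophic (-7.69 and -6.10, adjusted *P* = 0.00118 and 0.00119). The latter differences were -7.76 and -6.01 without hypertrophic replicate 1. Neither was called against resting, where only *Enpp2* (autotaxin) was called (0.87, limma adjusted *P* = 0.349). *Entpd6* (-0.62, limma adjusted *P* = 0.0906) and *Ank* (a pyrophosphate transporter, 0.66, 0.196) were also called against proliferative. The shares of all genes called in *aadd* against resting, proliferative and hypertrophic were 6.56%, 15.8% and 21.9%. The medians of the 8 genes were -0.02, -0.08 and -0.21 against resting, proliferative and hypertrophic, beside 0.01, 0.05 and 0.01 for all genes. *Ank* had 3.65 NRPKM in the lowest hypertrophic library and 54.8 in the highest. When hypertrophic replicate 1 was left out, it was called higher in hypertrophic than in proliferative (3.74) and resting (3.16) and lower in *aadd* than in hypertrophic (-3.07), and *Entpd6* was called lower in hypertrophic than in proliferative (-1.09). Without that library, 18.4%, 19.2% and 34.2% of all genes were called between hypertrophic and proliferative, resting and *aadd*.

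Among 14 genes for other routes of ATP release and for calcium channels of the endoplasmic reticulum, 8 were tested. *Slc17a9*, the vesicular nucleotide transporter, averaged 2.63 NRPKM in resting, 10.1 in proliferative, 11.7 in hypertrophic and 2.07 in *aadd*. This gene passed the filter only with proliferative or hypertrophic libraries counted, the groups in which it is called higher. It was called higher in proliferative and hypertrophic than in resting (log2 fold changes 2.33 and 2.64, limma adjusted *P* = 0.260 and 0.103). In *aadd* it was lower than in proliferative (-2.23, limma adjusted *P* = 0.0709) and hypertrophic (-2.55, 0.0168). The shares of all genes called in these comparisons were, in the same order, 5.53%, 13%, 15.8% and 21.9%. *Itpr3*, an inositol trisphosphate receptor, was called the other way in the same 4 comparisons (-1.11, -1.72, 0.93 and 1.53), with limma adjusted *P* of 0.0542 to 0.244. *Itpr1*, another receptor of that family, was called higher in hypertrophic than in proliferative (1.62, limma adjusted *P* = 0.165) and lower in *aadd* than in hypertrophic (-1.05, 0.186). Of all genes, 9.67% and 21.9% were called there. Without hypertrophic replicate 1, the differences from resting were 2.50 for *Slc17a9* and -1.52 for *Itpr3*, and those of *aadd* from hypertrophic were -2.40 and 1.33, all called. *Itpr1* then had 2.10 against proliferative and -1.53 in *aadd*, and was also called between hypertrophic and resting (1.31). Without that library, 18.4%, 19.2% and 34.2% of all genes were called between hypertrophic and proliferative, resting and *aadd*. No gene of the 8 was called between *aadd* and resting, where 6.56% of all genes were called. The medians of the list lay between -0.61 and 0.39 in the 6 comparisons.

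The genes nearest to *Panx1* in pattern over the 12 libraries were *Arpc1a* (Pearson *r* = 0.918), *Bid* (0.897) and *Iqgap2* (0.896). Those nearest to *Gjc1* were *Zfp384* (0.912), *Mboat7* (0.905) and *Cluap1* (0.898). *Cluap1*, a gene of primary cilia, averaged 15.8, 9.54, 10.2 and 15.1 NRPKM in resting, proliferative, hypertrophic and *aadd*, and *Gjc1* 19.4, 13.8, 14.7 and 19.6.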

How the data were processed

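RNA-Seq libraries were made from 20 ng of LCM-derived RNA with the NuGEN Ovation and Nextera kits. Reads were aligned to mm10 by the authors (TopHat is named in the submitters' processing notes), and those of low quality, with several alignments or in duplicate were then dropped. RPKM values normalized further in GeneSpring (NRPKM) were deposited. How libraries were scaled and whether strand was used are not given in the sources used here. The table holds no columns of fold changes or P values.

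Members were matched by gene symbol. Depth was estimated from the commonest value of single-exon receptor genes, taken as 1 read. Intervals are not given, since PCR reads are not independent molecules and estimated reads cover counting error only. limma 3.58.1 (R 4.3.3) was fitted to log2(NRPKM + 0.1) for genes with 5 NRPKM or more in 3 or more of 12 libraries, on the 6 libraries of each comparison with no covariate, and was tested on simulated data. Tables and plots used Python 3.11.15, pandas 2.3.3, numpy 2.4.6 and matplotlib 3.10.9. GENCODE vM21 gave strands and exon lengths.

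Replicate numbers were checked by correlating, across genes, how libraries with one number deviate from the means of their groups. Groups were taken as paired where every such r was over 0.1. Only WT proliferative and WT resting met this (r = 0.281, 0.179 and 0.198 for replicates 1 to 3, from the data and not the labels). Replicate 2 of *aadd* and of WT resting, which differ in genotype, gave r = 0.280. Such values therefore do not establish that libraries share an animal.

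All members were named, with the called genes of 5 related lists (at most 6 a list and comparison) and the genes most correlated with each tested member. The members and lists were chosen with earlier results of these data known. Alternatives were the replicate block, each library left out in turn, a variance trend, 1 fit of all 12 libraries, quantile normalization, median-of-ratios rescaling, a pseudocount of 1, and either no filter or a filter on the 6 libraries of a comparison. The related lists without WT hypertrophic replicate 1, and *Gja4* and *Gja5* with neither that library nor a filter, were added after seeing the data.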

Additional observations from a re-analysis of the deposited data

How the results depend on the processing

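The number of the 9 genes called in each comparison, of which 4 were tested with the filter, moved as follows. Between WT proliferative and WT resting it was 1, and 2 with no filter on low values (*Panx3* and *Gjb2*, the latter with 1 read or none in each proliferative library). Of all genes, 605 of 10936 were called there, and 1632 of 22491 with no filter. Between WT hypertrophic and WT proliferative the count of members was 1 (*Gja1*), 1 with no filter (*Gja5* in place of *Gja1*), 0 with rescaling by the median of ratios, 0 with quantile normalization, 0 with the replicate block, and 0 to 1 with a library left out (*Panx1* without proliferative replicate 1, *Gja1* without hypertrophic replicate 1). Of all genes, 1057 of 10936 were called there, and 2120 of 22511 with no filter. With rescaling, quantile normalization and the block, 1044, 951 and 1026 genes were called, and 658 to 2007 with a library left out. Between WT hypertrophic and WT resting the count of members was 3, 4 with no filter (*Gja4* and *Gja5* gained, *Gja1* lost), 2 with a pseudocount of 1 or the replicate block, and 1 to 3 with a library left out. Of all genes, 1426 of 10936 were called there, and 2769 of 22206 with no filter. With a pseudocount of 1 and the block, 1289 and 1466 genes were called, and 1196 to 2105 with a library left out. The count of members for *aadd* against WT resting was 1 throughout, where 717 of 10936 genes were called and 528 to 1300 under the alternatives. Against WT proliferative the count of members was 1, and 1 to 3 with a library left out (3 without proliferative replicate 1). There 1732 genes were called, 1441 to 2029 with a library left out, and 2029 without proliferative replicate 1. Against WT hypertrophic the count of members was 3, 3 with no filter (*Gja5* in place of *Panx1*), 2 with all 12 libraries in 1 fit, a variance trend or the replicate block, and 1 to 3 with a library left out. Of all genes, 2397 of 10936 were called there, and 3430 of 22471 with no filter. With 1 fit, the trend and the block, 2603, 2414 and 2177 genes were called, and 1791 to 3738 with a library left out. In the F test over 4 groups the count of members was 1, 2 with a variance trend, and 1 to 2 with a library left out (2 without proliferative replicate 1 or hypertrophic replicate 1). That test passed 13.8% of all genes in the main fit, and the share under its alternatives is not given. The replicate block changed no count of members but the 3 given. By the rule used, the numbers pair no samples outside WT proliferative and WT resting.

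Among 333 values of single genes under these alternatives, 288 kept their direction and side of the threshold, 31 fell below it, 3 passed it and 11 changed sign, all for differences that were not called. With quantile normalization *Panx1* between *aadd* and WT proliferative was -0.12. With a library left out, the log2 fold change ranged from -0.30 to 0.42 for *Panx1* and from -0.027 to 0.27 for *Gja1* between WT proliferative and WT resting, and from -0.064 to 0.28 for *Panx3* and from -0.051 to 0.45 for *Gjc1* between WT hypertrophic and WT proliferative. It ranged from -0.15 to 0.23 for *Gjc1* between *aadd* and WT resting and from -0.11 to 0.60 for *Panx1* between *aadd* and WT proliferative. The causes were not tested. With 3 libraries a group and few reads behind the values of *Panx2*, *Gjb2* and *Gjb6*, depth limits what can be said of these genes.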
